A study of Mus musculus with 15 samples.

Results

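The 8 libraries compared here were mouse epiblast-like cells (EpiLCs) collected after 2h or 4h of 4-hydroxytamoxifen (4OHT), with 4 libraries at each time out of 15 in the series. They were taken by their labels, and all 52636 gene identifiers of the count table were considered. EpiLCs are embryonic stem cells moved in culture towards the state of the early post-implantation epiblast. The cells were of the line CRAFR26, which carries a c-RAF kinase construct that 4OHT switches on and that drives ERK. Both groups had been kept as EpiLCs for 48 h in N2B27 medium with 12 ng/ml bFGF, 20 ng/ml Activin A and 1 µM XAV939. All groups were held in 250 nM PD17 (PD173074, an FGF receptor inhibitor) for 2h beforehand, and 4OHT was then given at 250 nM. Each time was sampled in clone 4 and clone 8, with 2 libraries per clone. The remaining groups, 0h (no 4OHT, 3 libraries) and rev (4OHT for 4h and then a MEK inhibitor for a further 2h, 4 libraries), entered the same fit and are cited for context. The submitters discarded 1 library of 0h. A line of 2 clones limits how far the values speak for the genotype, and there was no group that received 4OHT without the construct.

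ERK is the last kinase of the RAF-MEK-ERK cascade. Once active, it phosphorylates ETS-family cofactors of SRF, and within minutes these switch on immediate early genes, most of which encode short-lived transcription factors and regulators of mRNA decay. Their products, together with phosphatases and Sprouty-type inhibitors made under ERK control, then dampen the cascade and start a later set of genes. In pluripotent cells, FGF and ERK are known for driving the exit from the naive state.

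Between 2h and 4h many immediate early genes dropped. Fos, Junb, the 4 Egr factors, Zfp36, Ier2, Arc and Dusp1 fell by 2.69- to 12.2-fold. The largest of these folds, of Fos, is uncertain in size, since clone 8 was near the detection limit at 4h. Feedback inhibitors of a slower kind, among them Spred1, Spred2, Il17rd and Dusp4, rose. The calls of Spred1, Spred2 and Il17rd did not hold with scaling by total counts. Dusp4 rose mostly in clone 4, and its call was lost without either clone 4 library of 2h. Naive pluripotency genes such as Esrrb (18.1-fold) and Nr5a2 (17.6-fold) and the neural factors Sox1 (13.03-fold) and Pax6 (11.4-fold) rose. Of 7 neuroectoderm markers tested, 2 were called higher and 3 lower. Smaller rises were found in Slc2a3 (5.06-fold), Nid1 (4.67-fold) and Fn1 (3.54-fold). Of the 13451 genes that passed the filter on low counts, 5237 (38.9%) were called at an adjusted p under 0.05, with 2650 (19.7%) higher and 2587 (19.2%) lower at 4h. A change of at least 2-fold was fitted for 996 of the higher and 757 of the lower genes. These shares are the background for each list below.

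The 4h libraries stood apart in ways that the treatment time does not separate. Total counts were 1552022 to 6658950 at 4h against 9713985 to 12752651 at 2h, and the mitochondrial share was 7.21 to 12.4% against 2.78 to 6.98%. The 20 most abundant genes, rRNA among them, and the mitochondrial genes together took 66.2 to 79.9% of counts at 4h against 51.3 to 69.1% at 2h. Outside these genes, 523950 to 1453556 counts remained at 4h against 3003731 to 6213794 at 2h. A level of 3 counts, the limit used here for detection, stood at 0.683 to 1.83 CPM (read counts scaled to a common library total) at 4h and 0.161 to 0.341 CPM at 2h. The first component over these 8 libraries (41.8% of the variance) separated the times. The next (26.9%) separated the clones at both times, more widely at 4h. Split into 4 groups by transcript length, the 3361 shortest genes had a median log2 change of -0.18 and the 3359 longest 0.09. Scaling by total counts moved the median of all genes to -0.57, from -0.01 with the trimmed mean of M-values (TMM) used here. It left 487 genes higher and 4869 lower, so most calls of a rise depend on the scaling, also some of about 2-fold such as that of Il17rd (log2 change 1.13, adjusted p = 0.0765 with total count scaling). With every library thinned to an equal total, 2318 of 8809 genes were called, 1179 of them higher. The part of depth, RNA quality and transcript length in the results was not tested. In bulk RNA, fewer cells of a type and less RNA per cell cannot be told apart.

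The promoters of 4 members are shown for their motifs, with the courses described below: Zfp36 fell, Srf rose, Dusp5 went opposite ways in the clones, and Dusp1 fell. Each is the 160 bases before the RefSeq start (GRCm38.p6), 5′ to 3′ on the gene's strand. Capitals mark a CArG box (the SRF site, here CC, then 6 of A or T, then GG), the ETS core CCGGAA, or the cAMP response element TGACGTCA.
Zfp36, chr7:28379229-28379388, minus strand: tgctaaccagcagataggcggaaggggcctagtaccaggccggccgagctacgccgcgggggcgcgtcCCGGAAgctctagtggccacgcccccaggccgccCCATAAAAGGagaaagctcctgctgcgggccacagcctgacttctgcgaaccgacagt
Srf, chr17:46556163-46556322, minus strand: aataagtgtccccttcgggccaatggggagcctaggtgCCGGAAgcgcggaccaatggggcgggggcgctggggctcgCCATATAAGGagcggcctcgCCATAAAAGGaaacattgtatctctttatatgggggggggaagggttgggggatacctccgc
Dusp5, chr19:53528985-53529144, plus strand: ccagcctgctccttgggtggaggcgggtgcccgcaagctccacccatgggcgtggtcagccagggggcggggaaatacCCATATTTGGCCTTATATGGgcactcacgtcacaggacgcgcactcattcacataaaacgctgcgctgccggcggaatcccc
Dusp1, chr17:26508473-26508632, minus strand: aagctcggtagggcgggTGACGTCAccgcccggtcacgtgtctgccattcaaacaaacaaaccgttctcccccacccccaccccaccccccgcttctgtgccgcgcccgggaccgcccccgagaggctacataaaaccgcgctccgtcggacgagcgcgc

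Zfp36 held 1 CArG box that began 58 bases before the start, with an ETS core 92 bases before it. Srf held 2 CArG boxes, at 82 and 62 bases, and Dusp5 held 2 that adjoin each other at 82 and 72 bases. Dusp1 had no CArG box in this window and a TGACGTCA at 143 bases. A CArG box on either strand was found in 1.63% of the 32851 RefSeq promoter windows of 300 bases, and TGACGTCA in 1.79%. For CCGGAA, read on both strands, the share was 14.9%. In the 12682 windows of tested genes the shares were 1.32% for the CArG box, 3.08% for TGACGTCA and 27% for CCGGAA. Genes with several starts have several windows, and Egr2 held a CArG box in 4 of its 5. The 4 promoters shown were picked and are not typical. Not every listed gene had a window. Windows covered 11 of 12 AP-1, 4 of 6 Egr and Nab and 19 of 26 other immediate early genes. They covered 7 of 8 mRNA decay and 9 of 11 Dusp genes. Among the covered genes, a CArG box was found only in Egr2, Zfp36, Srf and Dusp5. It lay in 5 of 30 windows of genes called lower, 4 of them of Egr2, and in 2 of 37 windows of the others. Several Egr2 windows overlap and read the same box, so the windows are not independent. By gene, Egr2 and Zfp36 held a box among 23 covered genes called lower, and Dusp5 and Srf among the 27 others. The windows begin 250 bases before the start, so sites further out were not read. None of the 13 windows of AP-1 genes held one. A match is a description of the letters and not evidence of binding.

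**Figure D1:**
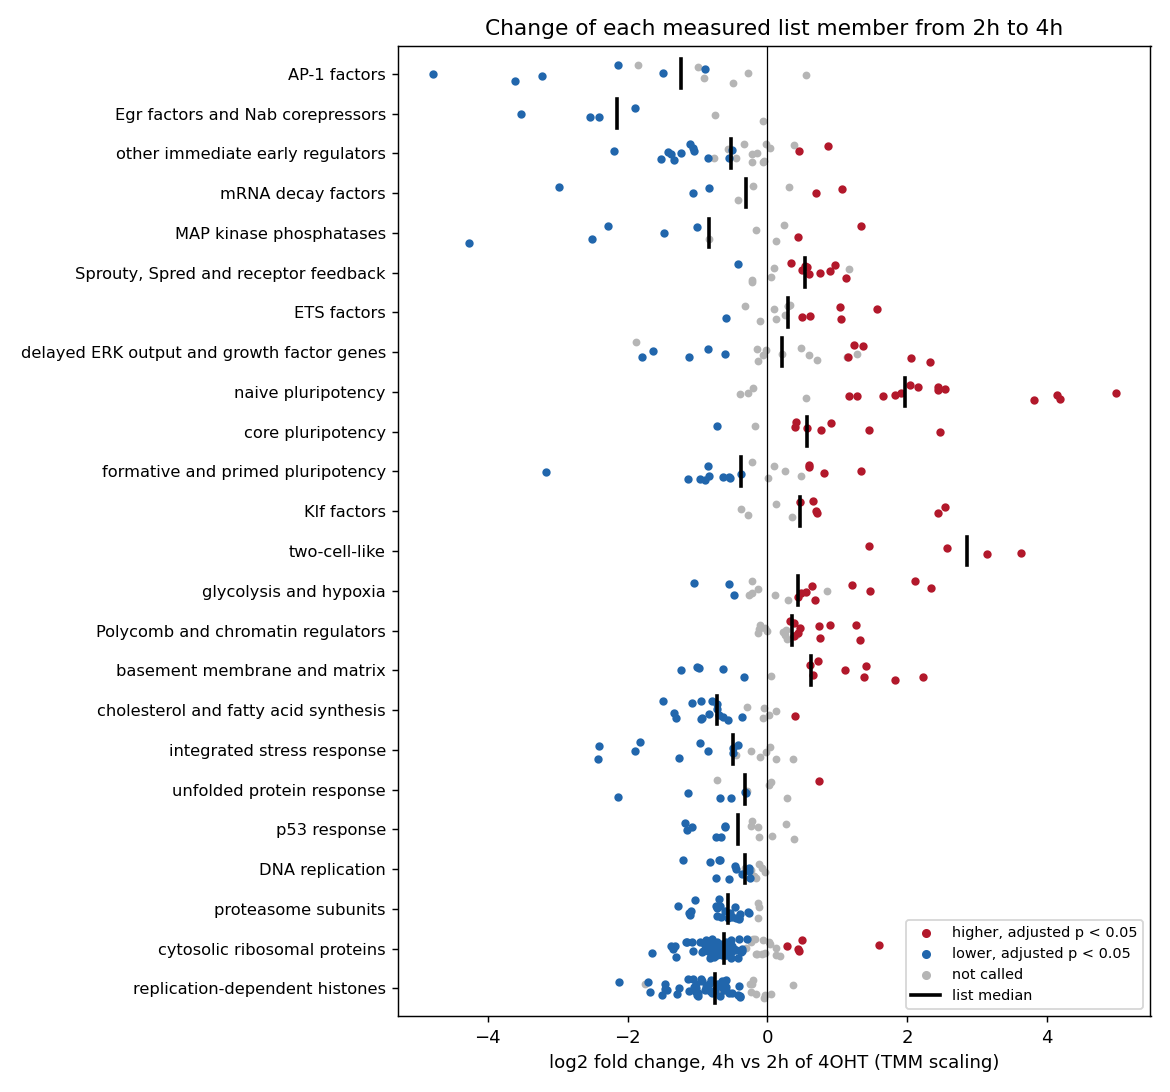
Log2 fold change from 2h to 4h for each measured member of 24 gene lists, one point per gene, with the list median as a black bar; red and blue points passed an adjusted p of 0.05. The AP-1 and Egr lists lie to the left, with medians of -1.24 and -2.15, and the naive pluripotency list lies to the right, with a median of 1.97.

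AP-1, the dimer of Fos and Jun family proteins, is the classical product of an ERK pulse. Of the 12 AP-1 factors and partners tested, 6 fell, none rose, and the median log2 change was -1.24 against -0.01 over all genes. With the 2 genes at the floor at 4h set to their bounds it was -0.95. The 6 that fell were Atf3, Fos, Junb, Fosb, Mafk and Mafg. The same number had 4h libraries that all lay below the 2h libraries, which held for 13.3% of all genes. Fos stood at 40.1 and 48.5 CPM in clone 4 and 22.3 and 22.98 CPM in clone 8 at 2h, and at 4.89 and 4.69 CPM in clone 4 and 0.911 and 1.13 CPM in clone 8 at 4h. It fell 12.2-fold (log2 change -3.61, SE 0.44, adjusted p = 4.10e-05), with no overlap between the groups. In clone 8 at 4h it was near or at the level of 3 counts (0.683 and 1.13 CPM), so the size of the fall is uncertain. Junb, which pairs with Fos, read 284 and 208 CPM in clone 4 and 52.6 and 89.6 CPM in clone 8 at 2h and 38.5 and 38.5 CPM in clone 4 and 4.33 and 2.26 CPM in clone 8 at 4h. Its drop was 9.37-fold (log2 change -3.23, SE 0.55, adjusted p = 0.00103). Clone 8 was below clone 4 at both times, and its change was the larger (log2 changes -2.67 in clone 4 and -4.37 in clone 8; adjusted p of the clone difference = 0.0457).

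The Fos relatives did not all follow. Fosb was low, at 1.02 to 2.92 CPM at 2h, and had 3 counts or fewer in each 4h library. It was at least 1.65-fold lower at 4h (adjusted p = 0.0118), and the call was lost without the clone 4 library 2 of 4h (adjusted p = 0.0557). Fosl1, a longer-lived AP-1 member that ERK stabilises, had 19.6 and 15.9 CPM in clone 4 and 6.11 and 6.54 CPM in clone 8 at 2h and 12.8 and 14.1 CPM in clone 4 and 1.14 and 1.89 CPM in clone 8 at 4h. This did not pass in the fit over both clones (log2 change -0.91, SE 0.37, adjusted p = 0.0632). Fosl2 went from 10.3 and 8.76 CPM in clone 4 and 3.14 and 4.499 CPM in clone 8 to 24.4 and 21.97 CPM in clone 4 and 1.37 and 1.51 CPM in clone 8. It rose in clone 4 and fell in clone 8 (log2 changes 1.28 in clone 4 and -1.43 in clone 8), and the clones differed with an adjusted p of 0.00263. Jun was level in clone 4 and fell in clone 8 (log2 changes 0.04 in clone 4 and -2.76 in clone 8; adjusted p of the difference = 3.09e-05).

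Atf3, a stress-responsive member of the same family, had 3 counts or fewer in each 4h library. It was at least 4.17-fold lower than at 2h, where it read 2.27 to 7.07 CPM. Unlike Fos it was not called between 0h and 2h (log2 change 0.09, adjusted p = 0.892). The small Maf proteins, which lack an activation domain, fell less: Mafk by 2.82-fold (log2 change -1.50, SE 0.23, adjusted p = 3.03e-05) and Mafg by 1.85-fold (log2 change -0.89, SE 0.11, adjusted p = 2.63e-06).

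The Egr zinc finger factors and their Nab corepressors formed the list with the lowest median, -2.15 over 6 genes, with 4 lower and none higher. Egr1 was the most abundant, with 730.1 and 910.1 CPM in clone 4 and 403 and 352 CPM in clone 8 at 2h. At 4h it held 180.2 and 220.2 CPM in clone 4 and 31.2 and 45.6 CPM in clone 8, so the groups did not overlap and clone 4 stayed above clone 8. The fall was 5.83-fold (log2 change -2.54, SE 0.49, adjusted p = 0.00221). Egr1 was still above its 0h level of 0.972 to 3.27 CPM (4h vs 0h log2 change 5.32, adjusted p = 0.000153).

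Egr3 read 138 and 146 CPM in clone 4 and 58.1 and 49.4 CPM in clone 8 at 2h and 55.6 and 53.8 CPM in clone 4 and 2.96 and 2.64 CPM in clone 8 at 4h (log2 change -2.40, SE 0.56, adjusted p = 0.00719). Clone 4 at 4h overlapped clone 8 at 2h, and the drop differed between the clones (log2 changes -1.38 in clone 4 and -4.25 in clone 8; adjusted p = 0.00152). Egr2 fell 3.73-fold (log2 change -1.90, SE 0.34, adjusted p = 0.000159). Egr4 went from 6.24 and 7.34 CPM in clone 4 and 3.14 and 4.55 CPM in clone 8 to 0.611 and 1.23 CPM in clone 4 and 0 and 0 CPM in clone 8 (log2 change -3.53, SE 0.52, adjusted p = 7.44e-06). Of the 4h libraries, only clone 4 library 2 held Egr4 above the level of 3 counts, so the size of this fall is uncertain. Without that library, the log2 change of Egr4 was -5.08. The corepressors Nab1 and Nab2, which Egr proteins induce and which then shut Egr activity down, were not called over both clones, at log2 changes of -0.06 (adjusted p = 0.927) and -0.75 (0.145). Nab1 rose in clone 4 and fell in clone 8 (log2 changes 0.48 in clone 4 and -0.96 in clone 8).

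**Figure D2:**
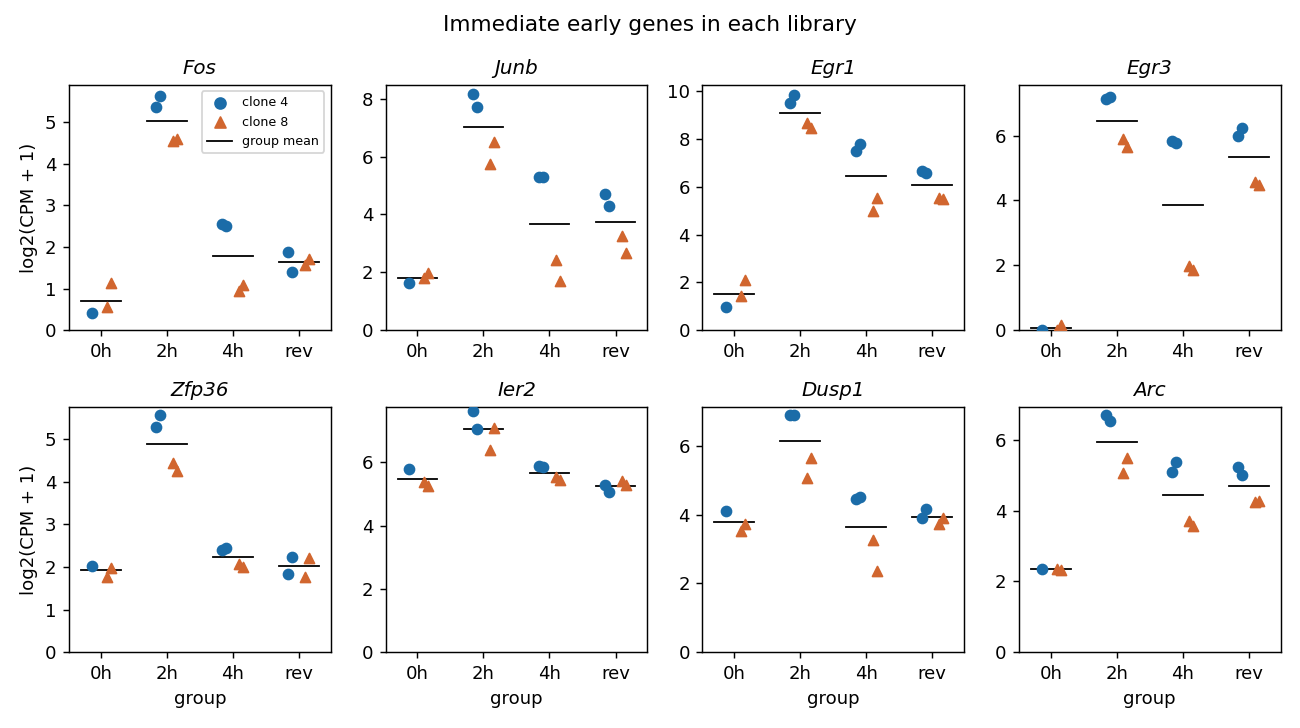
Level of 8 immediate early genes as log2(CPM + 1) in each library of 0h, 2h, 4h and rev, with clone 4 as blue circles, clone 8 as orange triangles and the mean of the log values as a black line. Fos, Junb, Egr1, Zfp36 and Dusp1 are highest at 2h in both clones and lower in all 4 libraries of 4h.

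Of 26 other immediate early regulators, 12 fell and 2 rose, with a median of -0.53. Ier2, a short-lived nuclear regulator, had 195 and 132 CPM in clone 4 and 82.2 and 134 CPM in clone 8 at 2h and 57.4 and 56.3 CPM in clone 4 and 44.9 and 42.2 CPM in clone 8 at 4h, a 2.69-fold fall (log2 change -1.43, SE 0.17, adjusted p = 7.15e-06). Its change was alike in size in the clones (log2 changes -1.52 in clone 4 and -1.31 in clone 8). Arc, known as an activity-induced gene of neurons, read 103 and 91.6 CPM in clone 4 and 32.4 and 43.4 CPM in clone 8 at 2h and 32.99 and 40.7 CPM in clone 4 and 12.1 and 10.9 CPM in clone 8 at 4h (log2 change -1.52, SE 0.22, adjusted p = 8.67e-05). Within each clone the times were apart for Arc, although clone 4 at 4h overlapped clone 8 at 2h.

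Klf10, a TGFβ- and growth factor-induced repressor, fell 2.36-fold (log2 change -1.24, SE 0.24, adjusted p = 0.00140), and Csrnp1, a nuclear factor, fell 2.17-fold (log2 change -1.11, SE 0.17, adjusted p = 2.62e-05). Both were still above 0h at 4h, with log2 changes of 1.17 (adjusted p = 0.00486) and 2.00 (1.91e-07). A further group fell without a call between 0h and 2h. Mcl1, an anti-apoptotic Bcl2 relative with a short-lived mRNA, had 219 to 281 CPM at 2h and 86.7 to 148 CPM at 4h (log2 change -1.05, SE 0.11, adjusted p = 1.45e-07). The kinase gene Plk2 (log2 change -1.38, SE 0.15, adjusted p = 5.58e-07), the antiproliferative Btg2 (log2 change -1.06, SE 0.16, adjusted p = 1.58e-05) and the NF-κB cofactor Nfkbiz (log2 change -2.20, SE 0.30, adjusted p = 6.32e-06) went the same way. Their 2h against 0h log2 changes were 0.24, 0.23, 0.42 and 0.24, none of them called.

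The 2 that rose were Sgk1 and Srf. Sgk1, a serum-induced kinase, stood at 22.02 and 21.8 CPM in clone 4 and 46.9 and 39.4 CPM in clone 8 at 2h and 63.5 and 56.5 CPM in clone 4 and 55.5 and 47.1 CPM in clone 8 at 4h (log2 change 0.86, SE 0.18, adjusted p = 0.000785). Within clones the rise was called in clone 4 alone (log2 changes 1.45 in clone 4 and 0.25 in clone 8), and the clone difference had an adjusted p of 0.00258. Srf, whose protein is known to bind CArG boxes, rose 1.37-fold (log2 change 0.45, SE 0.13, adjusted p = 0.00861); with total count scaling its log2 change was -0.08. Myc, the growth regulator, was not called over both clones. It read 60.5 and 55.7 CPM in clone 4 and 33.1 and 32.7 CPM in clone 8 at 2h and 91.02 and 98.2 CPM in clone 4 and 12.5 and 18.9 CPM in clone 8 at 4h, a rise in clone 4 and a fall in clone 8 (log2 changes 0.70 in clone 4 and -1.08 in clone 8; adjusted p of the difference = 0.000233).

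Regulators of mRNA decay help to end an early response. Of 8 tested, 3 fell and 2 rose (4 and 0 with total count scaling). Zfp36 (tristetraprolin), which binds AU-rich elements of early mRNAs and recruits deadenylases, had 37.9 and 46.2 CPM in clone 4 and 20.6 and 18.1 CPM in clone 8 at 2h. At 4h it read 4.28 and 4.44 CPM in clone 4 and 3.19 and 3.02 CPM in clone 8, below every 2h library, and close to its 2.41 to 3.08 CPM at 0h. The fall was 7.86-fold (log2 change -2.98, SE 0.22, adjusted p = 1.45e-09), and 4h against 0h was not called (log2 change 0.33, adjusted p = 0.308). Its paralog Zfp36l1 went the other way, from 6.58 and 7.78 CPM in clone 4 and 7.33 and 7.66 CPM in clone 8 to 12.8 and 16.3 CPM in clone 4 and 12.3 and 20.4 CPM in clone 8 (log2 change 1.07, SE 0.20, adjusted p = 0.000209; with total count scaling, 0.51 and adjusted p = 0.167). Tob1 and Tob2, adaptors of the CCR4-NOT deadenylase, fell 2.098-fold and 1.78-fold (log2 changes -1.07 and -0.83, adjusted p = 0.000180 and 0.000507). The fall of Tob1 was larger in clone 4 (log2 changes -1.76 in clone 4 and -0.45 in clone 8).

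MAP kinase phosphatases (Dusps) remove the activating phosphates from ERK and its relatives. Of 11 tested, 5 fell and 2 rose (7 and 1 with total count scaling). Dusp1, a nuclear phosphatase and itself an immediate early gene, read 118 and 117 CPM in clone 4 and 32.7 and 48.8 CPM in clone 8 at 2h and 20.8 and 21.97 CPM in clone 4 and 8.65 and 4.15 CPM in clone 8 at 4h. The groups did not overlap, and the fall was 5.703-fold (log2 change -2.51, SE 0.32, adjusted p = 8.52e-05). Dusp2 fell 4.86-fold (log2 change -2.28, SE 0.41, adjusted p = 0.000315; without the clone 4 library 2 of 4h, -2.94). Dusp6, the cytoplasmic ERK-specific phosphatase and a common readout of ERK output, had 169 and 182 CPM in clone 4 and 121 and 135 CPM in clone 8 at 2h and 81.9 and 86.9 CPM in clone 4 and 29.1 and 31.7 CPM in clone 8 at 4h. Dusp6 fell 2.803-fold (log2 change -1.49, SE 0.30, adjusted p = 0.00221) and was still above 0h (log2 change 3.88, adjusted p = 1.67e-05).

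Dusp4, a nuclear phosphatase that follows later in many cells, rose from 22.2 and 21.1 CPM in clone 4 and 16.9 and 20.9 CPM in clone 8 to 97.1 and 81.5 CPM in clone 4 and 28.00 and 23.8 CPM in clone 8 (log2 change 1.34, SE 0.38, adjusted p = 0.0160). It rose more in clone 4 (log2 changes 2.04 in clone 4 and 0.45 in clone 8), and the call was lost without either clone 4 library of 2h (adjusted p = 0.0556 and 0.0564). Dusp5, the nuclear ERK phosphatase with the paired CArG boxes, was split: it read 37.3 and 32.01 CPM in clone 4 and 15.2 and 17.7 CPM in clone 8 at 2h and 70.2 and 71.6 CPM in clone 4 and 8.65 and 7.16 CPM in clone 8 at 4h. It rose in clone 4 and fell in clone 8 (log2 changes 1.03 in clone 4 and -1.05 in clone 8; adjusted p of the difference = 6.31e-05). Dusp7 had a small rise (log2 change 0.44, SE 0.17, adjusted p = 0.0493) that turned to -0.16 with total count scaling. Its call was also lost without any of 5 single libraries, at 2h clone 4 library 2 and clone 8 library 1, and at 4h clone 4 library 2 and both of clone 8, with log2 changes of 0.30 to 0.49.

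Sprouty and Spred proteins block the cascade between receptor and RAF. Of 15 members of this list, which also holds other receptor-level inhibitors, 9 rose and 1 fell, with a median of 0.53. With total count scaling none rose, 2 fell and the median was 0.01, which is 0.59 above that of all genes in the same scaling. Spry4 and Spry2, the members with the largest 2h against 0h log2 changes (6.51 and 2.84), did not rise further. Spry4 read 118 and 124 CPM in clone 4 and 61.7 and 60.9 CPM in clone 8 at 2h and 94.1 and 105 CPM in clone 4 and 38.5 and 43.7 CPM in clone 8 at 4h, a small fall (log2 change -0.42, SE 0.12, adjusted p = 0.00927; adjusted p = 0.0561 in thinned libraries). Spry2 was not called (log2 change -0.23, SE 0.17, adjusted p = 0.315).

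The members that rose act at several steps of the cascade. Spred2 had 34.96 and 36.5 CPM in clone 4 and 35.8 and 31.3 CPM in clone 8 at 2h and 73.3 and 64.9 CPM in clone 4 and 71.5 and 62.6 CPM in clone 8 at 4h, a 1.96-fold rise (log2 change 0.97, SE 0.10, adjusted p = 1.98e-07) of equal size in the clones (log2 changes 0.95 in clone 4 and 1.00 in clone 8). Il17rd (Sef), which traps active MEK and ERK in the cytoplasm, read 10.6 and 10.2 CPM in clone 4 and 18.4 and 17.1 CPM in clone 8 at 2h and 20.2 and 20.7 CPM in clone 4 and 35.97 and 49.8 CPM in clone 8 at 4h (log2 change 1.13, SE 0.13, adjusted p = 8.63e-07). For both, the 4h libraries lay above the 2h libraries. Spred1 rose 1.69-fold (log2 change 0.75, SE 0.14, adjusted p = 0.000256) and Spry1 1.85-fold (log2 change 0.89, SE 0.26, adjusted p = 0.00865). In the 2h against 0h comparison, which shares the 2h libraries, Spred2 and Il17rd had log2 changes of 0.07 and -0.09, neither called. In rev against 4h, which shares the 4h libraries, they fell, by log2 changes of -0.83 (adjusted p = 2.52e-06) and -1.18 (8.79e-07). With total count scaling neither 4h against 2h call held (adjusted p = 0.138 and 0.0765), nor did those of Spred1 (0.507) and Spry1 (0.419).

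**Figure D3:**
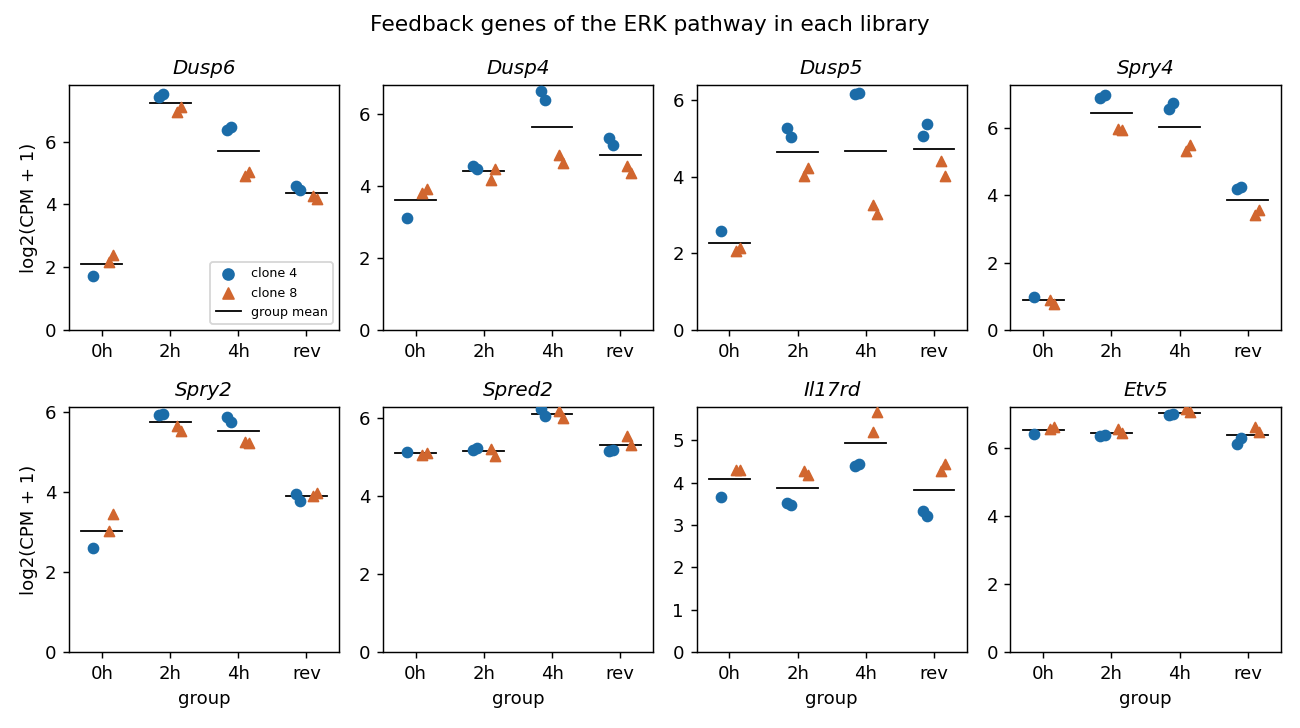
Level of 8 feedback genes as log2(CPM + 1) in each library of 0h, 2h, 4h and rev, with clone 4 as blue circles, clone 8 as orange triangles and the mean of the log values as a black line. Dusp6 is highest at 2h, Dusp5 moves in opposite directions in the clones, and Spred2 and Il17rd are highest at 4h.

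ETS factors carry the signal of ERK to DNA. Of 14 tested, 5 rose and 1 fell, with a median of 0.30; with total count scaling 1 rose, 2 fell and the median was -0.24. Etv5, a PEA3-family target of FGF signalling, read 80.3 and 81.8 CPM in clone 4 and 93.6 and 85.97 CPM in clone 8 at 2h and 125 and 125 CPM in clone 4 and 141 and 132 CPM in clone 8 at 4h (log2 change 0.61, SE 0.08, adjusted p = 4.86e-06; adjusted p = 0.769 with total count scaling). Its relative Etv1 rose 2.06-fold (log2 change 1.05, SE 0.22, adjusted p = 0.000872) and Elf4 2.96-fold (log2 change 1.56, SE 0.30, adjusted p = 0.000339). The SRF partner Elk4 fell 1.51-fold (log2 change -0.59, SE 0.12, adjusted p = 0.000500; adjusted p = 0.151 in thinned libraries). Among 15 genes of the RAF, MEK and ERK core cascade, 4 rose and 4 fell (0 and 4 with total count scaling). The ERK1 gene Mapk3 rose 1.87-fold (log2 change 0.91, SE 0.12, adjusted p = 6.90e-06; with total count scaling adjusted p = 0.252).

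The delayed ERK outputs and growth factor genes were mixed, with 5 higher and 5 lower of 21 (3 and 8 with total count scaling). Itga5, the fibronectin receptor subunit, read 21.3 and 16.01 CPM in clone 4 and 11.2 and 11.7 CPM in clone 8 at 2h and 47.04 and 42.2 CPM in clone 4 and 28.5 and 25.3 CPM in clone 8 at 4h (log2 change 1.24, SE 0.14, adjusted p = 5.72e-07). Ccnd2, a G1 cyclin, rose from 1.36 and 3.98 CPM in clone 4 and 11.2 and 9.21 CPM in clone 8 to 33.6 and 31.6 CPM in clone 4 and 17.1 and 20.4 CPM in clone 8 (log2 change 2.33, SE 0.54, adjusted p = 0.00627), with most of the rise in clone 4 (log2 changes 3.58 in clone 4 and 0.87 in clone 8). Its adjusted p was 0.056 in thinned libraries and 0.0577 in a fit of the 8 libraries alone. Phlda1 was called higher (log2 change 1.36, SE 0.48, adjusted p = 0.0385), but rose in clone 4 alone (log2 changes 2.19 in clone 4 and -0.36 in clone 8; adjusted p of the difference = 0.00164). That call was lost without any of 5 single libraries: both of clone 4 at each time, and clone 8 library 2 of 2h (log2 changes 0.80 to 1.38, adjusted p 0.0673 to 0.152).

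On the falling side, Rrad, a Ras-related GTPase, had 65.03 and 53.8 CPM in clone 4 and 16.1 and 23.1 CPM in clone 8 at 2h and 27.5 and 28.4 CPM in clone 4 and 2.96 and 3.02 CPM in clone 8 at 4h (log2 change -1.64, SE 0.41, adjusted p = 0.00861). Tnfrsf12a, the TWEAK receptor, fell 2.18-fold (log2 change -1.13, SE 0.33, adjusted p = 0.0134). Epha2, a receptor kinase gene, fell in clone 4 and was level in clone 8 (log2 changes -1.10 in clone 4 and -0.10 in clone 8). Its joint call (log2 change -0.61, SE 0.21, adjusted p = 0.0382) was lost without any single clone 4 library of either time (log2 changes -0.58 to -0.50, adjusted p 0.074 to 0.108). Plaur, Vgf and Hmga2 were not called over both clones (adjusted p = 0.451, 0.145 and 0.0567), yet within clone 4 each rose, at log2 changes of 1.02, 1.99 and 2.14. In clone 8 their log2 changes were -0.29, -0.44 and -0.58, none called.

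The clones thus differed in the change of part of the ERK genes. Some of these genes were already apart at 2h. The AP-1 list summed to 541 and 435 CPM in clone 4 and 212 and 292 CPM in clone 8 at 2h. The Egr and Nab list summed to 1026 and 1190 CPM in clone 4 and 524 and 469 CPM in clone 8. Taken alone, clone 4 gave 3674 calls (27.3%) and clone 8 gave 3622 (26.9%), with 943 genes higher and 965 lower in both. A further 51 were called higher in clone 4 and lower in clone 8, and 11 the reverse. The change itself differed between clones for 422 genes (3.14%). Of the 113 genes in the 8 early and ERK lists that were tested, 27 did so, 24 of them with the lower change in clone 8. Gata2, a GATA factor from the trophectoderm list, was an extreme case, at 2.27 and 4.51 CPM in clone 4 and 1.83 and 1.66 CPM in clone 8 at 2h and 18.3 and 16.04 CPM in clone 4 and 0.455 and 0.754 CPM in clone 8 at 4h (log2 changes 2.31 in clone 4 and -1.58 in clone 8; adjusted p of the difference = 0.000468). Among 19 SRF target and actin genes, 9 rose and none fell in clone 4, whereas 1 rose and 7 fell in clone 8; 6 of them differed between clones. With 2 libraries per clone and time, clone and culture cannot be told apart.

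**Figure D4:**
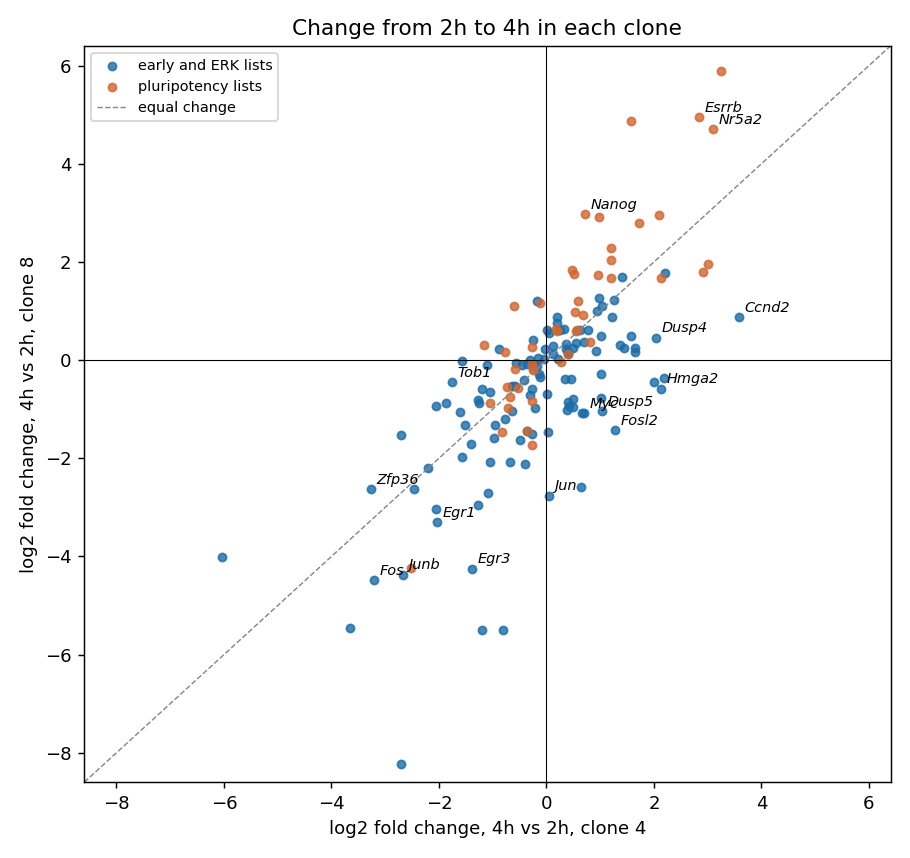
Log2 fold change from 2h to 4h in clone 4 (x axis) against clone 8 (y axis), one point per gene of the 8 early and ERK lists (blue) and the 3 pluripotency lists (orange), with equal change as a dashed line. Fosl2, Myc and Dusp5 lie in the lower right quadrant, where clone 4 rose and clone 8 fell, and Nanog lies above the line.

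A late group was naive pluripotency, the state that precedes the EpiLC. Of 18 listed genes, 14 rose, none fell, and the median was 1.97. With total count scaling 13 rose, 2 fell and the median was 1.40, and within clone 4 alone 10 rose and 1 fell. For 14 genes the 4h libraries all lay above the 2h libraries, as in 12.8% of all genes. Members low at 2h, Prdm14 and Tcl1 among them, could pass the filter through their 4h libraries, so these counts lean towards rises. In thinned libraries 11 of the 18 passed it, with 8 higher and 0 lower. Esrrb, an orphan nuclear receptor of the naive network, had 1.59 and 1.42 CPM in clone 4 and 2.27 and 2.52 CPM in clone 8 at 2h and 15.3 and 7.41 CPM in clone 4 and 72.8 and 76.2 CPM in clone 8 at 4h, an 18.1-fold rise (log2 change 4.18, SE 0.55, adjusted p = 0.000134). Nr5a2, a nuclear receptor, rose 17.6-fold, from 0.341 to 0.959 CPM at 2h to 3.67 and 4.69 CPM in clone 4 and 17.1 and 26.4 CPM in clone 8 (log2 change 4.13, SE 0.33, adjusted p = 4.41e-09). Both rises were seen in each clone, and the levels at 4h were higher in clone 8.

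Nanog read 10.7 and 10.1 CPM in clone 4 and 11.9 and 9.43 CPM in clone 8 at 2h and 14.1 and 19.5 CPM in clone 4 and 88.3 and 79.5 CPM in clone 8 at 4h (log2 change 2.04, SE 0.41, adjusted p = 0.00269). Its rise was larger in clone 8 (log2 changes 0.71 in clone 4 and 2.98 in clone 8; adjusted p of the difference = 3.00e-05). Klf2 read 5.11 and 4.78 CPM in clone 4 and 5.84 and 5.999 CPM in clone 8 at 2h and 21.4 and 20.7 CPM in clone 4 and 50.5 and 41.1 CPM in clone 8 at 4h (log2 change 2.54, SE 0.18, adjusted p = 7.90e-10), with no overlap. Klf5 rose more in clone 4 (log2 changes 2.90 in clone 4 and 1.79 in clone 8). The DNA demethylase gene Tet2 rose 3.15-fold (log2 change 1.66, SE 0.18, adjusted p = 1.36e-06). Prdm14, a repressor that guards the naive state, had 3 counts or fewer in each 2h library and was at least 11.3-fold higher at 4h, at a mean of 2.92 CPM. Its 4h counts were 2 and 4 in clone 4 and 20 and 13 in clone 8, so this bound rests mainly on clone 8. Tcl1, a cofactor of AKT, was at 0.262 to 0.531 CPM at 2h and 0.611 and 1.73 CPM in clone 4 and 10.02 and 9.801 CPM in clone 8 at 4h.

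Over the 18 naive genes tested, the median log2 change was 0.16 for 2h against 0h and -1.91 for rev against 4h. Levels at 0h and in rev are given for Esrrb and Klf2. Esrrb stood at 2.43 to 4.24 CPM at 0h and 0.826 to 3.24 CPM in rev, and Klf2 at 3.19 to 5.68 and 4.34 to 9.45 CPM. Fitted log2 changes of Esrrb were -0.60 for 2h against 0h (adjusted p = 0.592), 3.57 for 4h against 0h (0.000575) and -4.10 for rev against 4h (0.000223). These comparisons share libraries with 4h against 2h. The rev cells had had the same 4h of 4OHT, and what part the 4h libraries themselves have in the contrast was not tested.

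Of 9 core pluripotency genes, 7 rose and 1 fell; with total count scaling 2 rose and 2 fell. Dppa2 rose 2.73-fold (log2 change 1.45, SE 0.21, adjusted p = 3.68e-05) and Sox2 1.88-fold (log2 change 0.91, SE 0.12, adjusted p = 2.67e-06; adjusted p = 0.195 with total count scaling). Pou5f1, the OCT4 gene, fell 1.64-fold, from 189 and 137 CPM in clone 4 and 133 and 191 CPM in clone 8 to 100.2 and 102 CPM in clone 4 and 102 and 90.8 CPM in clone 8 (log2 change -0.72, SE 0.11, adjusted p = 3.03e-05). The formative and primed list, which marks the EpiLC itself, leaned the other way, with 10 lower and 4 higher of 19 (11 and 1 with total count scaling). Dnmt3b, the de novo DNA methyltransferase, read 896 and 797 CPM in clone 4 and 746 and 818 CPM in clone 8 at 2h and 419.7 and 398 CPM in clone 4 and 408 and 439.5 CPM in clone 8 at 4h (log2 change -0.97, SE 0.07, adjusted p = 2.15e-09). Dnmt3a, Pou3f1 and Sox3 fell by log2 changes of -0.64, -0.84 and -1.14. Otx2 and Lef1 rose (log2 change 0.81, SE 0.13, adjusted p = 5.97e-05, adjusted p = 0.454 with total count scaling; and log2 change 1.34, SE 0.14, adjusted p = 2.85e-07).

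Cldn6, a tight junction protein in the same list, fell 8.97-fold, from 30.5 and 33.96 CPM in clone 4 and 27.3 and 25.8 CPM in clone 8 to 5.498 and 5.68 CPM in clone 4 and 1.59 and 1.13 CPM in clone 8 (log2 change -3.17, SE 0.29, adjusted p = 1.06e-06). Cldn7, another claudin, read 17.9 and 18.9 CPM in clone 4 and 11.7 and 13.8 CPM in clone 8 at 2h and 1.22 and 3.21 CPM in clone 4 and 0.911 and 1.51 CPM in clone 8 at 4h (log2 change -3.11, SE 0.22, adjusted p = 1.29e-09). Ap1m2, an epithelial sorting adaptor, was the one gene that ended by the rule of 3 counts or fewer in each 4h library and a mean of at least 5 CPM at 2h. It was at least 6.34-fold lower. Of the claudins, Cldn6 stood at 28.7 to 32.5 CPM at 0h and 27.1 to 29.2 CPM in rev, so the low values were found at 4h.

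**Figure D5:**
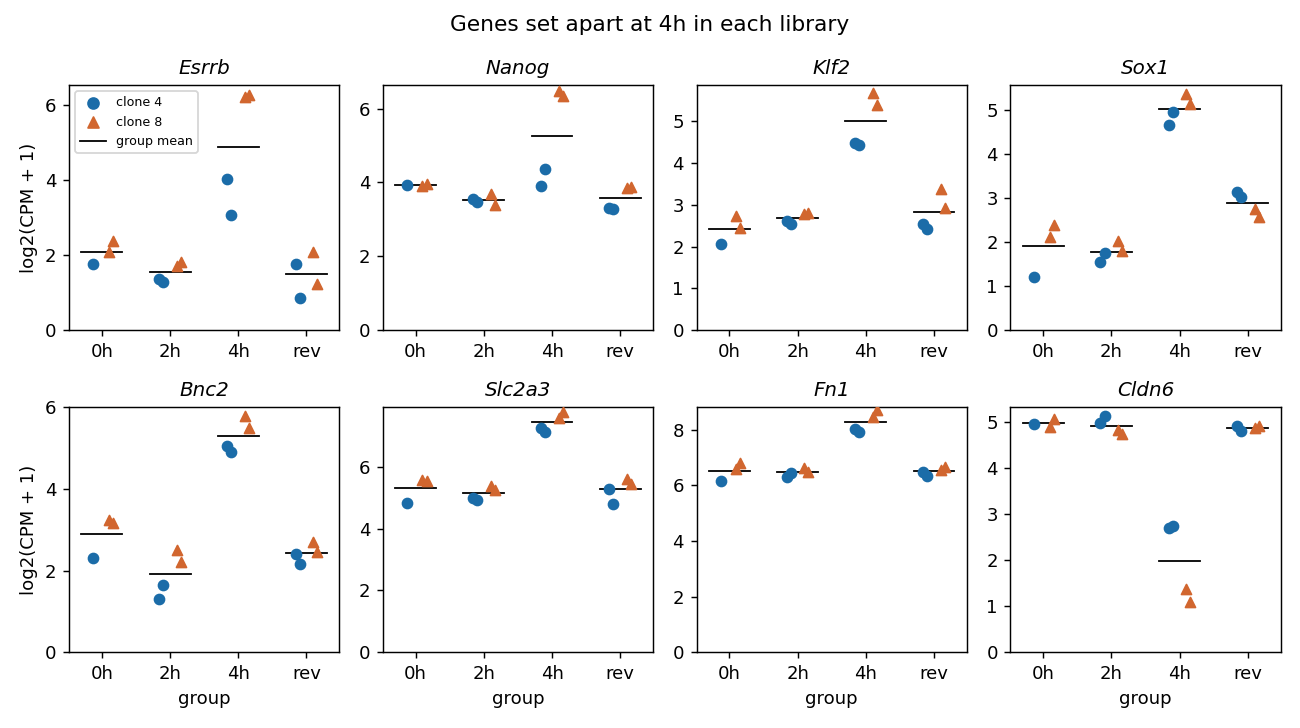
Level of 8 genes that stood apart at 4h as log2(CPM + 1) in each library of 0h, 2h, 4h and rev, with clone 4 as blue circles, clone 8 as orange triangles and the mean of the log values as a black line. Esrrb, Nanog and Klf2 are highest in clone 8 at 4h, Sox1, Bnc2, Slc2a3 and Fn1 are high at 4h in both clones, and Cldn6 is low there.

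Markers of other cell states moved in part. Of 10 listed neuroectoderm markers 7 were tested, and 2 rose and 3 fell. Sox1, a neural plate factor, stood at 1.93 and 2.39 CPM in clone 4 and 3.05 and 2.46 CPM in clone 8 at 2h and 24.4 and 30.1 CPM in clone 4 and 40.1 and 33.9 CPM in clone 8 at 4h, a 13.03-fold rise (log2 change 3.70, SE 0.26, adjusted p = 1.29e-09). Pax6, a factor of eye and forebrain, read 1.25 and 1.24 CPM in clone 4 and 0.698 and 0.696 CPM in clone 8 at 2h and 13.4 and 10.6 CPM in clone 4 and 10.5 and 9.05 CPM in clone 8 at 4h (log2 change 3.51, SE 0.25, adjusted p = 1.33e-09). The progenitor filament Nes fell in the same libraries (log2 change -1.32, SE 0.24, adjusted p = 0.000613). Summed over the list, the level was 70.3 to 102 CPM at 2h and 74.6 to 88.9 CPM at 4h. Of 11 listed markers of the 2-cell-like state 4 passed the filter, and all 4 were called higher, Zscan4d among them (log2 change 2.57, SE 0.34, adjusted p = 5.11e-06), with sums of 1.93 to 2.44 CPM at 2h and 6.72 to 17.8 CPM at 4h. At so low a level at 2h the filter favoured genes that are high at 4h, so the count of 4 is no support, and in thinned libraries 0 of the 11 passed it. Near-identical copies in this family make its single genes uncertain.

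Of 12 listed trophectoderm markers 8 were tested. Of these, 3 rose and 1 fell, the keratin gene Krt8 (log2 change -1.61, SE 0.34, adjusted p = 0.00237). In thinned libraries 3 were tested, with 0 higher and 1 lower. In the full libraries of clone 8 alone, 2 rose and 4 fell. The sums were 60.8 and 54.4 CPM in clone 4 and 26.0 and 32.9 CPM in clone 8 at 2h, and 66.0 and 64.9 CPM in clone 4 and 11.2 and 13.2 CPM in clone 8 at 4h, so they were lower in clone 8 only. For mesendoderm 8 of 15 listed markers were tested, and 1 rose and 2 fell (sums 8.90 to 17.9 CPM at 2h and 8.88 to 19.8 CPM at 4h). For primitive endoderm 8 of 13 were tested, and 1 rose and 4 fell (142 to 170.1 CPM and 98.8 to 162 CPM). The part of such cells in the results was not tested.

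Among the 15 largest rises chosen by a fixed rule, several lay outside the lists. Bnc2, a zinc finger protein, stood at 1.48 and 2.12 CPM in clone 4 and 4.71 and 3.64 CPM in clone 8 at 2h and 32.4 and 28.9 CPM in clone 4 and 54.2 and 43.7 CPM in clone 8 at 4h (log2 change 3.77, SE 0.19, adjusted p = 4.89e-12). The long noncoding RNA Lncenc1, known from naive stem cells, read 14.2 and 13.7 CPM in clone 4 and 9.51 and 8.89 CPM in clone 8 at 2h and 98.3 and 101 CPM in clone 4 and 123 and 117 CPM in clone 8 at 4h (log2 change 3.29, SE 0.19, adjusted p = 5.46e-10). Halr1, a noncoding RNA beside the Hoxa cluster, rose 15.6-fold (log2 change 3.96, SE 0.23, adjusted p = 3.66e-11). Dusp27, an atypical member of the phosphatase family, rose 18.3-fold, from 0.436 to 1.59 CPM to 17.7 and 16.3 CPM in clone 4 and 17.3 and 18.5 CPM in clone 8 (log2 change 4.20, SE 0.31, adjusted p = 1.45e-09). The meiotic cohesin gene Smc1b, the thymic regulator Aire and the chemerin receptor gene Cmklr1 rose 11.8-fold, 19.2-fold and 14.3-fold. Aire shares exon positions with the opposite-strand gene Dnmt3l, so its reads may not be its own.

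No gene met the rule for a start, 3 counts or fewer in every 2h library and a mean of at least 5 CPM at 4h. Without the level at 4h, 12 genes at that floor at 2h were called higher. In the other direction, 189 genes with 3 counts or fewer in each 4h library were called lower; in the shallower 4h libraries 3 counts stand for a higher level. Genes this low at one time passed the filter through other libraries, so these counts are a description. Among the 12, H2-M5 was at least 18.9-fold and Runx2 at least 8.12-fold higher, each carried by 1 clone. At 4h H2-M5 had 4 and 3 counts in clone 4 and 25 and 28 in clone 8, and Runx2 had 7 and 11 counts in clone 4 and 1 and 3 in clone 8. Both were chosen after their values were seen. Other genes called higher had over 3 counts in at least 1 library of 2h.

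Sugar transport and glycolysis genes rose in part, with 9 higher and 3 lower of 19 (4 and 7 with total count scaling). The glucose transporter gene Slc2a3 had 30.9 and 29.4 CPM in clone 4 and 40.8 and 37.6 CPM in clone 8 at 2h and 154 and 140.5 CPM in clone 4 and 191 and 221 CPM in clone 8 at 4h (log2 change 2.34, SE 0.11, adjusted p = 1.88e-12). Slc2a1 rose 2.31-fold (log2 change 1.21, SE 0.09, adjusted p = 2.37e-09) and the phosphofructokinase gene Pfkp 4.33-fold (log2 change 2.11, SE 0.17, adjusted p = 3.00e-08). Ldha, which turns pyruvate into lactate, fell 2.07-fold (log2 change -1.05, SE 0.10, adjusted p = 3.10e-08), so members of the list moved both ways.

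Matrix genes split too, with 8 higher and 5 lower of 14 (4 and 5 with total count scaling). Fn1, the fibronectin gene, read 77.1 and 86.5 CPM in clone 4 and 97.7 and 88.3 CPM in clone 8 at 2h and 256 and 242 CPM in clone 4 and 352 and 410.1 CPM in clone 8 at 4h (log2 change 1.82, SE 0.10, adjusted p = 1.93e-11), and Nid1, a basement membrane linker, rose 4.67-fold (log2 change 2.22, SE 0.20, adjusted p = 2.02e-08). The collagen chaperone gene Serpinh1 rose 2.66-fold (log2 change 1.41, SE 0.15, adjusted p = 2.84e-07). Col4a1 fell 2.35-fold (log2 change -1.23, SE 0.14, adjusted p = 4.96e-07); it shares exon positions with the opposite-strand gene Col4a2. Of 20 Polycomb and chromatin regulators 10 rose and none fell, among them Jarid2 (log2 change 1.27, SE 0.08, adjusted p = 2.46e-10), Bmi1 (log2 change 1.32, SE 0.18, adjusted p = 4.94e-06) and Arid1a (log2 change 0.89, SE 0.07, adjusted p = 4.41e-09). With total count scaling 2 rose and 2 fell, and Arid1a was not called (adjusted p = 0.219).

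Signal receptors and ligands changed as well. Of 9 LIF and STAT3 genes, 4 rose and 2 fell (2 and 2 with total count scaling). Lifr, the LIF receptor, stood at 4.88 and 5.04 CPM in clone 4 and 10.4 and 8.195 CPM in clone 8 at 2h and 17.1 and 14.3 CPM in clone 4 and 65.3 and 59.9 CPM in clone 8 at 4h (log2 change 2.26, SE 0.18, adjusted p = 6.03e-09), and its partner Il6st rose 2.32-fold (log2 change 1.22, SE 0.15, adjusted p = 1.54e-06). In the Nodal and BMP list, with 4 higher and 6 lower of 20 (1 and 9 with total count scaling), the paired inhibitors of Nodal diverged. Lefty1 fell 3.42-fold (log2 change -1.77, SE 0.22, adjusted p = 4.58e-05), and Lefty2 rose 3.65-fold (log2 change 1.87, SE 0.15, adjusted p = 6.79e-09). The SMAD repressor gene Skil fell 2.598-fold (log2 change -1.38, SE 0.10, adjusted p = 8.42e-10). Of 11 Wnt targets 5 rose and 3 fell (3 and 4 with total count scaling). Among 328 genes named Zfp, which encode DNA-binding zinc finger proteins, 125 rose and 23 fell, or 30 and 65 with total count scaling. Zfp57, which maintains imprints, rose 6.87-fold (log2 change 2.78, SE 0.15, adjusted p = 1.46e-11), Zfp710 4.88-fold and Zfp532 4.33-fold.

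Cholesterol and fatty acid synthesis fell as a list, with 15 lower and 1 higher of 21 and a median of -0.72. Msmo1, a sterol oxidase of cholesterol synthesis, had 154 and 197 CPM in clone 4 and 242 and 190.4 CPM in clone 8 at 2h and 66.6 and 92.1 CPM in clone 4 and 88.3 and 65.97 CPM in clone 8 at 4h (log2 change -1.31, SE 0.12, adjusted p = 7.22e-08), with no overlap between the groups. Of 17 genes of the integrated stress response, 10 fell and none rose. Ddit3, the CHOP gene, fell 5.305-fold, from 19.4 and 21.1 CPM in clone 4 and 11.9 and 15.6 CPM in clone 8 to 3.67 and 3.703 CPM in clone 4 and 2.96 and 2.64 CPM in clone 8 (log2 change -2.41, SE 0.27, adjusted p = 8.85e-07); 2 genes on the opposite strand share its exon positions. The cystine transporter gene Slc7a11 fell 3.52-fold (log2 change -1.82, SE 0.23, adjusted p = 2.91e-06). Of 12 unfolded protein response genes 6 fell and 1 rose. Herpud1, of endoplasmic reticulum degradation, read 31.9 and 29.1 CPM in clone 4 and 39.6 and 38.7 CPM in clone 8 at 2h and 8.55 and 6.91 CPM in clone 4 and 9.11 and 7.16 CPM in clone 8 at 4h (log2 change -2.13, SE 0.16, adjusted p = 1.33e-09), and the chaperone gene Hspa5 fell 2.198-fold (log2 change -1.14, SE 0.14, adjusted p = 6.35e-06).

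The p53 list had 7 lower and none higher of 14. Within clone 4 alone 9 fell and 1 rose (median -0.65), and within clone 8 alone 5 fell and 1 rose (median -0.11). Mdm2, which encodes the ligase that destroys p53, fell 2.11-fold (log2 change -1.08, SE 0.11, adjusted p = 2.21e-07), and the cell cycle inhibitor Cdkn1a (p21) 2.23-fold (log2 change -1.16, SE 0.18, adjusted p = 5.96e-05). Of 19 DNA replication genes 12 fell and none rose, Rrm2 among them (log2 change -0.73, SE 0.12, adjusted p = 4.24e-05); tested within single clones, 17 fell in clone 4 and 3 in clone 8. Several housekeeping lists had more members lower than higher. Of 25 proteasome subunits 22 fell, for instance Psma7 (log2 change -1.28, SE 0.10, adjusted p = 5.64e-09), and of 80 cytosolic ribosomal protein genes 61 fell and 5 rose. Rps12 read 389 and 306 CPM in clone 4 and 328 and 411 CPM in clone 8 at 2h and 136 and 136 CPM in clone 4 and 161 and 128 CPM in clone 8 at 4h (log2 change -1.36, SE 0.10, adjusted p = 1.45e-09). Of 57 replication-dependent histone genes 44 fell and none rose, and 35 of 75 nuclear OXPHOS subunits fell while 2 rose. Of 13 mitochondrially encoded genes 7 were tested, and all 7 were called higher, with a median of 1.82. In a fit of the 8 libraries alone 3 of the 7 were called, and within either clone 1. Median transcript lengths in these lists were 1591 bases for the proteasome, 1054 for ribosomal proteins, 534 for histones, 1046 for OXPHOS and 1144 for the mitochondrially encoded genes, against 3362 over all genes, and their part was not tested.

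Among the 15 largest falls outside the early genes were Rmrp, the RNA of RNase MRP, and Slc40a1, the iron exporter ferroportin. Rmrp stood at 425 and 264 CPM in clone 4 and 232 and 198 CPM in clone 8 at 2h and 27.5 and 15.8 CPM in clone 4 and 36.9 and 23.8 CPM in clone 8 at 4h (log2 change -3.42, SE 0.40, adjusted p = 8.04e-05). Slc40a1 fell 9.18-fold (log2 change -3.20, SE 0.41, adjusted p = 7.01e-06; -4.49 without the clone 4 library 2 of 4h). Adamts1, a secreted protease gene, resembled the early genes in its values: it read 1.74 to 2.75 CPM at 0h, 24.9 and 21.9 CPM in clone 4 and 8.81 and 9.32 CPM in clone 8 at 2h and 2.44 and 4.69 CPM in clone 4 and 0.228 and 1.13 CPM in clone 8 at 4h. Its fall from 2h was 7.71-fold (log2 change -2.95, SE 0.29, adjusted p = 1.62e-07; -3.69 without the clone 4 library 2 of 4h).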

How the data were processed

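RNA was sequenced from 15 libraries of 1 µg rRNA-depleted total RNA each. What was deposited are unnormalized read counts for each gene; per the submitters' processing notes, which give no roles, mm10, STAR 2.5.3a and bcl2fastq 2.19.1 were named. The counting tool and its use of strand are not given in the sources used here. Names, lengths and exon overlaps came from GENCODE M21, which held 52489 of 52636 identifiers. Of 130 genes named here, 41 share exon positions with another gene, so their reads cannot be fully separated; among these are Junb (with Prdx2), Fosl1 (Ccdc85b), Nab2 (Stat6), Dusp1 (Ergic1) and Pfkp (Pitrm1). Every value column was used.

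Genes were kept with filterByExpr (minimum count 10, minimum total 15), scaled by TMM and tested with edgeR 4.0.16 (R 4.3.3), a robust two-sided quasi-likelihood F test with group and clone over all 15 libraries. Sharing the spread across groups adds residual degrees of freedom. P-values were adjusted by Benjamini-Hochberg over all 13451 genes, and genes were called under 0.05. Clone differences came from a second model that fitted every combination of group and clone. SEs are the log2 change divided by the root of F. CPM use TMM-scaled totals. Group means and ranges count each library once; no pair of libraries agreed within sampling noise. The labels give 2 replicates of each clone, without saying whether these were separate cultures, so p-values may measure technical spread. The fit was tested on simulated data.

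The members and lists were chosen with earlier results of these data known. Named genes were the tested members of 8 early and ERK lists, up to 5 members of smallest adjusted p in each other list, and the 15 largest rises and falls among called genes of the same sign in both clones, without overlap, with a mean of at least 5 CPM and a symbol not of the Gm or Rik kind; some genes that this rule picks are not reported here. Alternatives were total count scaling, DESeq2 1.42.0, no filter, the 8 libraries alone, thinning, a replicate block, leaving out abundant genes, each library in turn, and each clone alone. Same-numbered libraries were not paired by the labels.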

Additional observations from a re-analysis of the deposited data

Results flagged for a closer look

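The change from 2h to 4h differed between the clones for 32 of the 130 genes named here, by a test of the difference itself (adjusted p under 0.05 over all genes). The values are the log2 change of clone 8 minus that of clone 4. For immediate early factors they were -1.70 for Junb, -1.72 for Fosl1, -2.70 for Fosl2, -2.80 for Jun, -1.27 for Egr1, -2.87 for Egr3, -1.45 for Nab1, -1.24 for Nab2, -1.79 for Myc and -1.20 for Sgk1. In the same class, Plk2 had 0.98 and the decay adaptor Tob1 1.31, with the deeper fall in clone 4. For feedback and delayed ERK genes they were -1.02 for Dusp6, -1.58 for Dusp4, -2.08 for Dusp5, -1.62 for Rrad, -2.55 for Phlda1, -2.70 for Ccnd2, -2.43 for Vgf, -2.72 for Hmga2 and -1.07 for Fgf5, and 1.00 for Epha2. For pluripotency genes and the RNA Lncenc1 they were 2.10 for Esrrb, 2.26 for Nanog, 0.87 for Lncenc1, 1.11 for Lifr and -1.12 for Klf5. The remaining values were -1.71 for Cldn6, -1.11 for Nes, -1.57 for Krt8, -3.89 for Gata2 and 0.73 for Rrm2. Clone, culture and library cannot be told apart with 2 libraries per clone and time.

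In 4 cases a library lay far from the other 3 of its group by Dixon's ratio, which chance gives in about 1 of 20 groups, and 260 were examined. Psmd14, a proteasome subunit gene, read 59.1 CPM in clone 8 library 2 at 2h against 50.6 to 51.6 CPM in the others. At 4h, Phgdh, of serine synthesis, read 22.0 CPM in clone 4 library 2 against 18.5 to 18.9 CPM. Cdkn1a read 21.2 CPM in clone 8 library 1 against 27.5 to 27.9 CPM. Bmi1 read 14.1 CPM in clone 4 library 1 against 21.1 to 21.4 CPM.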

How the results depend on the processing

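Over both clones, 5237 genes were called. Thinning every library to an equal total left 2318 calls (1179 higher, 1139 lower) and 399 list genes, against 630 in the full libraries. An alternative chosen after seeing the data, thinning after mitochondrial and the 20 most abundant genes were removed, left 2520 (1353 higher, 1167 lower) and 411 list genes. Fewer counts and fewer genes enter these fits. Total count scaling gave 487 higher and 4869 lower, so 9.09% of calls were higher against 50.6%, and with no filter on low counts the share was 39.0%. It also turned Srf (-0.08) and Dusp7 (-0.16). Clone 8 alone turned Fosl2 (-1.43), Myc (-1.08), Dusp5 (-1.05), Phlda1 (-0.36) and Gata2 (-1.58), and clone 4 alone turned Nab1 (0.48). DESeq2 called 4766 genes, and edgeR's earlier quasi-likelihood form, also added after seeing the data, 4957. Leaving out single libraries gave 4502 to 4981 calls, and 110 of the 118 called genes named here were called in all 8 such fits; 5 were lost in at least 1, and Prdm14, Tcl1 and Notum did not pass the filter in some. With clone and number as a replicate block, 5182 genes were called, and Dusp7, Epha2 and Phlda1 were lost (adjusted p = 0.0616, 0.0809 and 0.0666). Deviations of same-numbered libraries of 2h and 4h correlated at 0.05 in clone 4 and -0.05 in clone 8 across genes. Those of 2h and rev correlated at 0.26 in clone 4 and -0.19 in clone 8. With 2 libraries per clone and group, these values cannot show whether the numbers pair the samples. Depth limits low genes: 3 counts equal up to 1.83 CPM at 4h.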
